A study of Mus musculus with 5 samples.

Results

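The 10 genes described here encode proteins of secondary and tertiary neutrophil granules and of the cytosol and membranes of maturing neutrophils. Their RNA levels were followed through 5 RNA-seq libraries of a mouse leukaemia model. They are Ltf, Camp, Lcn2, Ngp, Mmp8, Mmp9, S100a8, S100a9, Chil3 and Cybb, taken by symbol from the deposited table of normalized counts, where all 10 were found among 27526 genes. Per the labels, the RNA came from Kit+ leukaemia stem cells of an AML1-ETO9a mouse model. AML1-ETO9a is a truncated form of the RUNX1-RUNX1T1 fusion of human acute myeloid leukaemia, and both groups carry it. The genotype was Plcg1 +/+ in 2 libraries (wild-type 1 and 3) and Plcg1 -/-, by conditional deletion, in 3 libraries (deleted 2, 4 and 6). Plcg1 encodes phospholipase C-γ1, an enzyme that makes the second messengers diacylglycerol and inositol trisphosphate. The sources used here name no Cre driver, age, sex or number of mice, so every p-value rests on a spread between libraries that may be technical.

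Neutrophils load their granules in waves as they mature. Primary (azurophil) granules are filled at the promyelocyte stage with myeloperoxidase and serine proteases. Secondary (specific) granules follow at the myelocyte and metamyelocyte stages with lactoferrin, cathelicidin and lipocalin 2, and tertiary (gelatinase) granules come last with Mmp9. The cytosolic S100a8-S100a9 complex, calprotectin, accumulates over the same stages, and the oxidase subunit encoded by Cybb sits in the membrane of specific granules but is also made by monocytes and macrophages. The transcription factor Cebpe is required for secondary granule genes. In leukaemia these genes serve as a measure of how far granulocytic maturation has gone.

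The libraries held 37306507 to 57133771 gene counts. The unit used below is CPM, counts scaled to the library total times a TMM factor for each library. In this unit 3 counts correspond to 0.0526 CPM in deleted 2 and up to 0.0723 CPM in wild-type 1. Plcg1 itself stood at 22.1 and 34.0 CPM in wild-type 1 and wild-type 3 and at 53.0, 26.9 and 37.1 CPM in deleted 2, 4 and 6. Whole-gene counts keep reads from exons outside a deleted part and do not check the deletion, so each group name below refers to the library's label. Deleted 6 stood apart from the other 4 libraries: Kit, the receptor named in the cell label, was at 3.08 CPM there. It stood at 26.8 and 32.1 CPM in wild-type 1 and wild-type 3, and at 672 and 304 CPM in deleted 2 and deleted 4, so the label's marker was lowest in deleted 6. Reads of Xist numbered 5375 in deleted 6, and no other library held more than 3. Ddx3y, a gene of the Y chromosome, was at 0.271 CPM in deleted 6 and at 64.0 to 92.4 CPM elsewhere, so by these sex-linked genes deleted 6 had a female pattern and the other 4 libraries a male one. Results that rest on deleted 6 are given with and without it. The file names place wild-type 1 in sequencing lane 3, deleted 6 in lane 5 and the other 3 libraries in lane 4, so what sets deleted 6 apart cannot be told apart from its lane or from sex. In these bulk libraries fewer cells of a type and less RNA per cell cannot be told apart either.

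The members fell into sets by their level in deleted 6. Ltf, Camp, Ngp, Lcn2, Chil3, S100a8 and S100a9 were at least 4-fold lower in deleted 6 than in the lowest of the other 4 libraries, 7 of 10 members, where 8.75% of the 16120 tested genes met that rule. For Mmp8 and Cybb deleted 6 was the highest of the 5 libraries, although neither was 4-fold above all the others, a rule met by 1.86% of tested genes. Mmp9 was low in all 3 libraries labelled deleted. A different subset separated deleted 2 and 4 from wild-type: without deleted 6, edgeR's quasi-likelihood test called Camp, Ngp and Mmp9 lower and Chil3 higher at an adjusted p under 0.05, where 5.07% of 15787 tested genes were called lower and 7.89% higher. The other 6 members were not called in that fit.

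**Figure D1:**
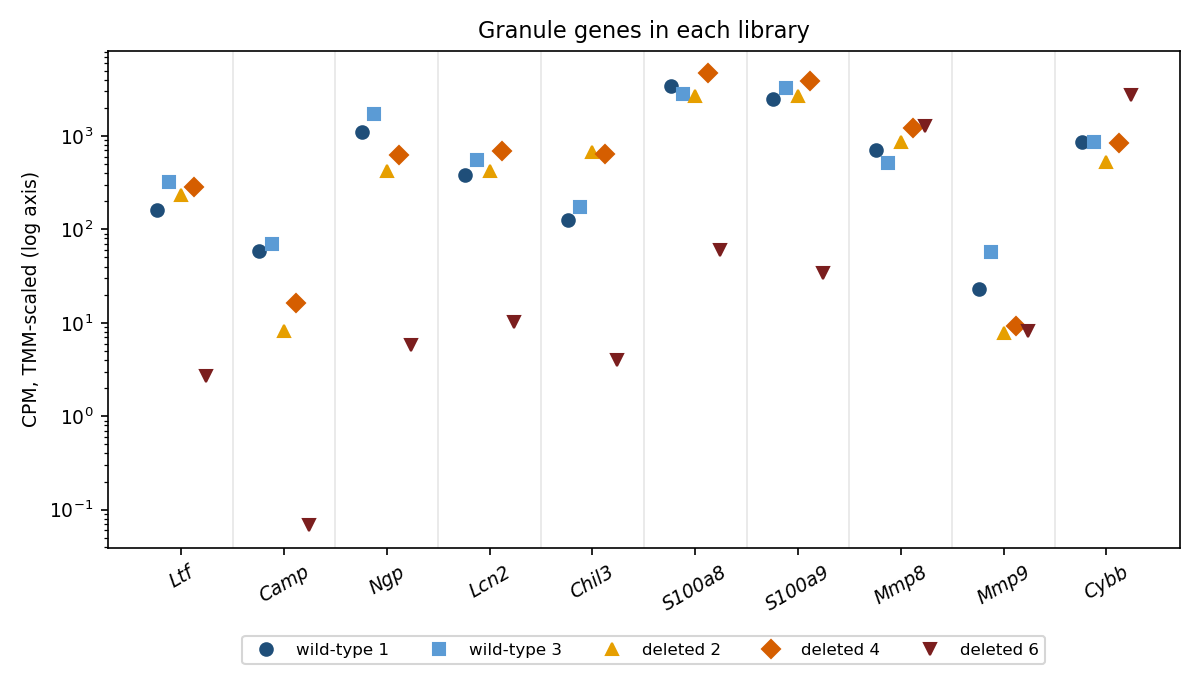
Level of each of the 10 genes in each of the 5 libraries, as CPM scaled with TMM factors on a log axis; each symbol is 1 library. Deleted 6 lies far below the other 4 libraries for 7 genes, from Camp at 0.0678 CPM to S100a8 at 59.6 CPM, and at the top for Mmp8 (1278 CPM) and Cybb (2739 CPM).

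All 10 members passed the filter on low counts, and across all 5 libraries no member passed the genome-wide test. edgeR's quasi-likelihood test gave adjusted p from 0.157 (Mmp9) to 0.910 (Lcn2) for the 10 members, and it called 0% of the 16120 tested genes. At an unadjusted p under 0.05 there was 1 member higher, Mmp8, and 1 lower, Mmp9, where 9.44% and 5.42% of all genes reached that level. DESeq2 called 0 members higher and 1 lower, Mmp9, beside 4.53% and 2.14% of the genes to which it gave an adjusted p. limma-voom with library quality weights called Mmp8 higher and Mmp9 lower, beside 7.63% and 5.87%. The values of the 3 deleted libraries lay below both wild-type libraries in 3 members (Camp, Ngp and Mmp9) and above both in 1 (Mmp8), while 23.7% and 22.4% of all tested genes did so. As log2 fold change, deleted minus wild-type, the members' median was -0.37 with all 5 libraries and 0.15 without deleted 6, and over all tested genes it was 0.01 and -0.01.

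**Figure D2:**
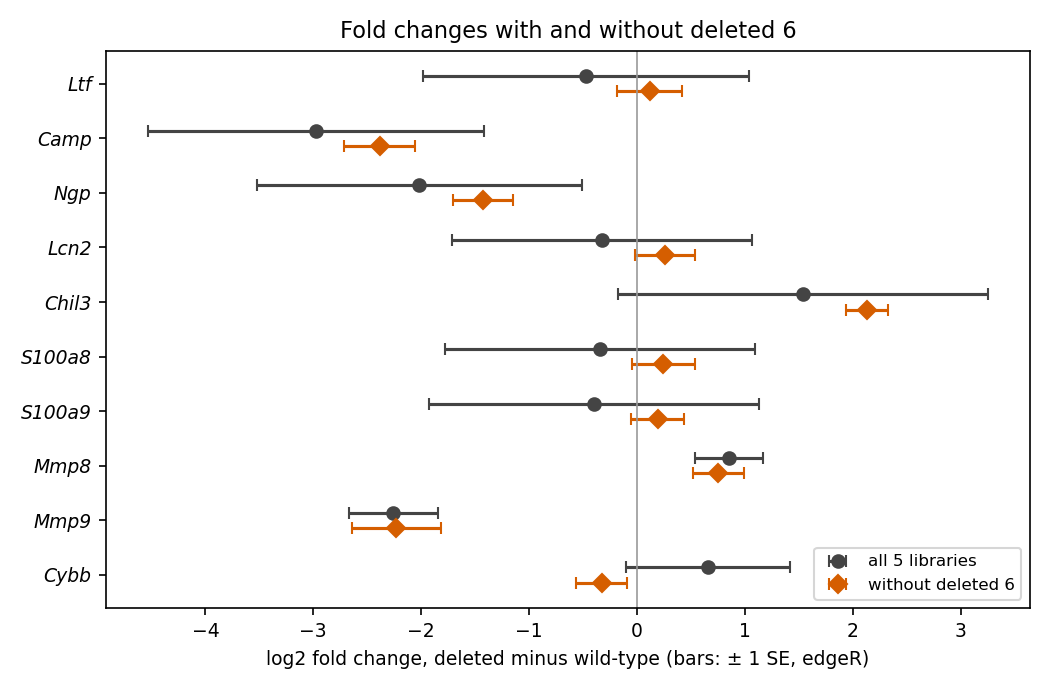
log2 fold change, deleted minus wild-type, of each gene in edgeR with all 5 libraries (circles) and without deleted 6 (diamonds); bars are ± 1 SE. Error bars shrink without deleted 6 for the 7 genes that are low in that library, and also for Cybb and Mmp8. Mmp9 keeps nearly the same SE, 0.41 and 0.42, and nearly the same value, -2.26 and -2.23.

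Sequence upstream of the start sites is shown for 4 members, because they stand for both patterns in deleted 6 and these windows hold no exon annotated in GENCODE M21. S100a9 and Chil3 were low in deleted 6, and Mmp8 and Cybb were highest there. Each line gives 250 bases before the RefSeq start (GRCm38.p6), 5′ to 3′, and the Cybb window lies in an intron of a longer GENCODE gene model. Capitals mark matches on either strand to motifs of factors known from myeloid promoters: the C/EBP motif is spelled TTNNGCAA, the PU.1 motif has the letters GAGGAA, the RUNX motif reads TGTGGT, the CCAAT box is the letters of its name, and the GATA motif is written AGATAA.
S100a9 (chr3:90695722-90695971, minus strand): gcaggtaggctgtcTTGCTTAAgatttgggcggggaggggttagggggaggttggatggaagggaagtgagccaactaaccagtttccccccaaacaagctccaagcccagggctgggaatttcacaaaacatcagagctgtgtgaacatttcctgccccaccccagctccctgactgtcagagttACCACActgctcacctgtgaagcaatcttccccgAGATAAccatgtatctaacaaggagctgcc
Chil3 (chr3:106167565-106167814, minus strand): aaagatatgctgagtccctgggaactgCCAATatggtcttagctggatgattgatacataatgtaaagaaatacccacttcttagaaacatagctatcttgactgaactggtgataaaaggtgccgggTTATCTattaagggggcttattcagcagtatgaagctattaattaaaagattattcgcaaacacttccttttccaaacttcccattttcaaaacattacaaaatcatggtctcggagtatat
Mmp8 (chr9:7558179-7558428, plus strand): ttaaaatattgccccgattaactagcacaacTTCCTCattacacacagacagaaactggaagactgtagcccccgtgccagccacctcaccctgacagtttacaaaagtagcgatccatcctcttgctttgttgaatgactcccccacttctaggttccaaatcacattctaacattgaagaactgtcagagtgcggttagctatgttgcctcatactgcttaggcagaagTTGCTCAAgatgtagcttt
Cybb (chrX:9469325-9469574, minus strand): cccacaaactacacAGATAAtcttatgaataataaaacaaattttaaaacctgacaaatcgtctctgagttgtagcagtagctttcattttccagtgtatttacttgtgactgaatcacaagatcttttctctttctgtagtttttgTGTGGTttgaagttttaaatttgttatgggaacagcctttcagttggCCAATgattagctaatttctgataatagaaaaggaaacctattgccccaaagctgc

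RefSeq promoters were found for 9 of the 10 members. Unlike the windows printed above, those of Ltf, Camp, Lcn2, Ngp and S100a8 overlap annotated exons. The longest overlap with an exon was 21 bases for Ltf and up to 161 bases for Camp. The C/EBP letters occurred in 5 of these 9 windows (Ltf, Lcn2, Ngp, Mmp8 and S100a9), and in 9.56% of all 32851 promoter windows of the same length. In the Mmp8 window above the match begins 19 bases before the start and in the S100a9 window 236 bases before it. The PU.1 letters occurred in 4 (Ltf, Lcn2, Mmp8 and S100a8; 23.3% of all windows) and the CCAAT box in 4 (Ltf, Ngp, Chil3 and Cybb; 33.8%). In the Ltf window the CCAAT box and C/EBP matches overlap. The RUNX letters occurred in 2, S100a9 and Cybb (14% of all windows), 1 from each set, and the GATA letters in 4 (Ltf, S100a9, Chil3 and Cybb; 9.99%). The C/EBP letters were also split, with Mmp8 among the windows that hold them and Chil3 and S100a8 among those that do not. A match is a description of the letters only.

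Ltf and Lcn2, the iron-handling proteins of specific granules, differed between wild-type and deleted 2 and 4 by less than the spread between libraries. Ltf, lactoferrin, binds free iron (ENSMUSG00000032496.6; mm10 chromosome 9, 111019271 to 111042767). It stood at 163 and 320.04 CPM in wild-type 1 and wild-type 3, at 233 and 285 CPM in deleted 2 and deleted 4, and at 2.71 CPM in deleted 6. Both values of deleted 2 and 4 lay between the wild-type values, and deleted 6 was 60.0-fold below the lowest of the others. The log2 fold change was -0.47 ± 1.51 (SE) with all 5 libraries and 0.12 ± 0.31 without deleted 6 (edgeR adjusted p = 0.878 and 0.856). Lcn2, lipocalin 2, captures bacterial siderophores (ENSMUSG00000026822.13; chromosome 2, 32384633 to 32388252). It stood at 377 and 553 CPM in wild-type 1 and wild-type 3, 420.4 and 682 CPM in deleted 2 and deleted 4, and 10.2 CPM in deleted 6. The groups overlapped, and without deleted 6 the log2 fold change was 0.26 ± 0.28 (edgeR adjusted p = 0.617).

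The cathelicidin-type genes Camp and Ngp were lower in every library labelled deleted. Camp encodes the precursor of the mouse cathelicidin, an antimicrobial peptide (ENSMUSG00000038357.10; chromosome 9, 109847379 to 109849617). It stood at 58.7 and 70.0 CPM in wild-type 1 and wild-type 3, at 8.11 and 16.3 CPM in deleted 2 and deleted 4, and at 0.0678 CPM in deleted 6, where only 3 reads were counted. The groups did not overlap, and deleted 2 and 4 already lay well below wild-type. Camp fell by 2.39 ± 0.33 (SE) on the log2 scale without deleted 6 (edgeR adjusted p = 0.00656). With all 5 libraries the log2 fold change was -2.98 ± 1.55 (adjusted p = 0.413, edgeR). The mean of the other 4 libraries was 564 times the value in deleted 6, with a 95% Poisson interval of 193 to 2737 that covers the counting error of the 3 reads only.

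Ngp, neutrophilic granule protein, is related to the cathelicidins (ENSMUSG00000032484.8; chromosome 9, 110419747 to 110423012). It stood at 1108 and 1719.7 CPM in wild-type 1 and wild-type 3, 421 and 622 CPM in deleted 2 and deleted 4, and 5.77 CPM in deleted 6. All 3 deleted libraries lay below both wild-type libraries. Without deleted 6 it fell by 1.43 ± 0.28 on the log2 scale (edgeR adjusted p = 0.0224), and with all 5 libraries the value was -2.02 ± 1.51 (adjusted p = 0.529). Within lane 4 alone, with wild-type 3 as its only wild-type library, the log2 fold changes of Camp and Ngp were -2.51 and -1.71 (edgeR adjusted p = 0.0761 and 0.0752). All lane 4 fits assume that wild-type 3 varies like the deleted libraries.

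Chil3 was higher in deleted 2 and deleted 4 than in wild-type and very low in deleted 6. It encodes the chitinase-like protein Ym1, made by neutrophil precursors and by some macrophages (ENSMUSG00000040809.10; chromosome 3, 106147554 to 106167564). The level was 128 and 176 CPM in wild-type 1 and wild-type 3, 669.5 and 648 CPM in deleted 2 and deleted 4, and 4.05 CPM in deleted 6. Deleted 2 and 4 lay above both wild-type libraries and close to each other, while deleted 6 lay below all 4. Without deleted 6 Chil3 rose by 2.13 ± 0.19 (SE) on the log2 scale (edgeR adjusted p = 0.00178). Within lane 4 the value was 1.92 ± 0.19 (edgeR adjusted p = 0.0398), a fit with wild-type 3 as its only wild-type library, whose spread comes from deleted 2 and 4 alone. When deleted 6 was kept the value was 1.54 ± 1.71 (edgeR adjusted p = 0.655). Chil4, a near-identical neighbour, had 1 and 0 counts in wild-type 1 and 3, 22 and 14 in deleted 2 and deleted 4, and 1 in deleted 6. Reads that fit both genes were left out as multiply aligned, so the counts of both are uncertain.

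The metalloproteinases Mmp8 and Mmp9 went in opposite directions. Mmp8, the neutrophil collagenase of specific granules (ENSMUSG00000005800.2; chromosome 9, 7558456 to 7568485), stood at 715 and 517 CPM in wild-type 1 and wild-type 3 and at 853, 1204 and 1278 CPM in deleted 2, 4 and 6. All 3 deleted libraries lay above both wild-type libraries, with means of 616 ± 140 CPM (SD, n = 2) and 1111 ± 227 CPM (SD, n = 3). With all 5 libraries this gave 0.85 ± 0.32 (SE) on the log2 scale (adjusted p = 0.321, edgeR). It was 0.75 ± 0.24 without deleted 6 (edgeR adjusted p = 0.0902), and limma-voom, with 0.89 ± 0.20 on all 5 libraries, called it (adjusted p = 0.0401). The value in deleted 6 was 1.06 times that of the next highest library, deleted 4.

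Mmp9, gelatinase B of tertiary granules (ENSMUSG00000017737.2; chromosome 2, 164940780 to 164955850), stood at 22.9 and 57.2 CPM in wild-type 1 and wild-type 3 and at 7.76, 9.15 and 8.19 CPM in deleted 2, 4 and 6. The deleted libraries lay close together, with a mean of 8.37 ± 0.714 CPM (SD, n = 3), and below both wild-type libraries, which averaged 40.0 ± 24.3 CPM (SD, n = 2). The log2 fold change was -2.26 ± 0.41 (SE) with all 5 libraries and missed the threshold in edgeR (adjusted p = 0.157). It was -1.45 without wild-type 3, the library with the highest level, and -2.77 without wild-type 1. DESeq2 called Mmp9 lower (adjusted p = 0.000424), as did limma-voom (adjusted p = 0.0327) and edgeR without deleted 6 (-2.23 ± 0.42, adjusted p = 0.0190). Per kb of annotated exon, Mmp8 exceeded Mmp9 by 45.6 and 13.2 times in wild-type 1 and 3 and by 160, 192 and 228 times in deleted 2, 4 and 6. Their tissue inhibitors are the Timp proteins: Timp2 stood at 63.9 and 118 CPM in wild-type 1 and wild-type 3, 139.8 and 313 CPM in deleted 2 and deleted 4, and 1214.5 CPM in deleted 6 (edgeR adjusted p = 0.339), whereas Timp1 did not exceed 4.30 CPM and Timp3 did not exceed 0.964 CPM in any library.

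S100a8 and S100a9, the subunits of calprotectin, were the most abundant members in 4 of the 5 libraries. They lie next to each other on chromosome 3, at 90668978 to 90670035 (S100a8, ENSMUSG00000056054.9) and 90692632 to 90695721 (S100a9, ENSMUSG00000056071.11). S100a8 stood at 3443 and 2801 CPM in wild-type 1 and wild-type 3, 2657 and 4671 CPM in deleted 2 and deleted 4, and 59.6 CPM in deleted 6. S100a9 stood at 2500.1 and 3295 CPM in wild-type 1 and wild-type 3, 2701 and 3862 CPM in deleted 2 and deleted 4, and 33.7 CPM in deleted 6. For each gene wild-type overlapped with deleted 2 and 4, and deleted 6 was at least 44.6-fold below every other library.

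Without deleted 6 the log2 fold changes of S100a8 and S100a9 were 0.24 ± 0.29 and 0.19 ± 0.24 (SE; edgeR adjusted p = 0.653 and 0.675). The pair took 0.661% and 0.655% of all gene counts in wild-type 1 and 3, 0.573% and 0.860% in deleted 2 and deleted 4, and 0.00722% in deleted 6. By CPM per kb both ranked within the top 4 of 16045 genes in the first 4 libraries, and at 591 and 850 in deleted 6. The ratio of S100a8 to S100a9 per kb was 1.04 and 0.639 in wild-type, 0.740 and 0.910 in deleted 2 and deleted 4, and 1.33 in deleted 6, so both subunits were low together there. Of their receptors, Tlr4 stood at 54.8 and 64.7 CPM in wild-type 1 and wild-type 3 and at 73.4, 107 and 132 CPM in deleted 2, 4 and 6 (log2 fold change 0.80 ± 0.30, edgeR adjusted p = 0.319), and Ager did not exceed 1.04 CPM. Of the 8 receptors and inhibitors of granule proteins listed, 7 were tested and edgeR called 0, with Tlr4 alone at an unadjusted p under 0.05; DESeq2 called 0 and limma-voom 1, Tlr4.

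Cybb, the catalytic subunit gp91phox of the phagocyte NADPH oxidase (ENSMUSG00000015340.9; chromosome X, 9435252 to 9487771), was highest in deleted 6. It stood at 869 and 865 CPM in wild-type 1 and wild-type 3, 525 and 843 CPM in deleted 2 and deleted 4, and 2739 CPM in deleted 6. Deleted 2 and 4 lay below both wild-type values and deleted 6 was 3.15 times the highest of the others. The log2 fold change was 0.66 ± 0.76 (SE) with all 5 libraries and -0.33 ± 0.23 without deleted 6 (edgeR adjusted p = 0.665 and 0.426), so its sign rested on that library. Its membrane partner Cyba (p22phox) was also highest in deleted 6, at 2736 CPM. Cyba stood at 827 and 619 CPM in wild-type 1 and wild-type 3 and at 717 and 1044 CPM in deleted 2 and deleted 4. Below deleted 6 the order of the libraries differed from that of Cybb.

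The cytosolic oxidase subunits described here did not share the high value of deleted 6 in Cybb and Cyba. Ncf1 (p47phox) stood at 479 and 555 CPM in wild-type 1 and wild-type 3, 363 and 432 CPM in deleted 2 and deleted 4, and 554 CPM in deleted 6. Ncf4 (p40phox) ranged from 207 to 287 CPM, with deleted 6 lowest and wild-type 3 highest. The GTPase gene Rac2 was lowest in deleted 6, at 207 against 486 to 627 CPM elsewhere. Cybc1, listed in the files under its older symbol BC017643, is a chaperone of the Cybb protein and stayed between 93.9 and 106 CPM. Of the 6 partners on the list 0 were called by edgeR with all 5 libraries, 0 reached an unadjusted p under 0.05, and DESeq2 and limma-voom each called 0; edgeR called 0 without deleted 6.

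**Figure D3:**
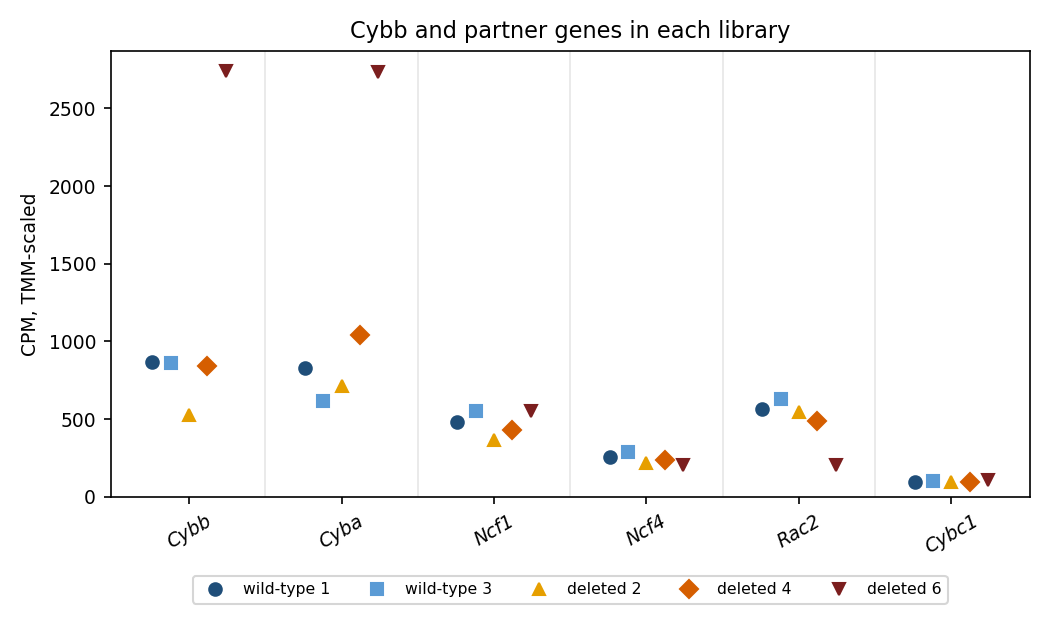
CPM (TMM-scaled, linear axis from 0) of Cybb and 5 genes for its partner proteins in each library; each symbol is 1 library. Cybb and Cyba stand near 2740 CPM in deleted 6, while the other genes plotted reach at most 627 CPM in all 5 libraries.

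Compared with one another per kb of exon, the members stood in another order in deleted 6 than in the other 4 libraries. S100a8 and S100a9 led in those 4 libraries, at 3828 to 7399 CPM per kb, their order changing between libraries. Ngp came next in wild-type 1 and 3 (906 and 1407 CPM per kb) and in deleted 4 (509 CPM per kb), while Chil3 took that place in deleted 2, at 410.3 against 352 CPM per kb for Mmp8 and 344 for Ngp. Mmp9 was lowest in these 4 libraries, at 2.19 to 16.2 CPM per kb. In deleted 6 the order began with Mmp8 and Cybb, at 527 and 472 CPM per kb, followed by S100a8 at 85.9, and ended with Camp at 0.0895 CPM per kb. Together the 10 members made up 1.04% and 1.11% of gene counts in wild-type 1 and 3, 0.908% and 1.29% in deleted 2 and deleted 4, and 0.321% in deleted 6, where Cybb and Mmp8 supplied most of the reads.

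The nearest coding genes beside the members differed from gene to gene; those named here were chosen after their values were seen. Camp, Ngp and Ltf all lie on chromosome 9, with Camp and Ngp below wild-type in deleted 2 and deleted 4 and Ltf between the wild-type values. Klhl18, 2914 bases from Ngp, was at 12.2 to 20.7 CPM in the 5 libraries, and Nme6, 4263 bases from Camp, was at 34.5 to 36.9 CPM in 4 libraries and 18.3 CPM in deleted 6. Cdc25a, a cell cycle phosphatase gene on the other side of Camp, was at 69.6 to 92.9 CPM in those 4 libraries and 16.1 CPM in deleted 6. Ccrl2, the coding gene after Ltf, was highest in deleted 6, at 68.2 against 15.1 to 19.9 CPM, as was 1110008P14Rik beside Lcn2, at 63.1 against 21.04 to 28.8 CPM. S100a7a, on the other side of S100a8, did not exceed 0.198 CPM. No annotated gene overlapped any member on either strand in GENCODE M21, so the unstranded counts are not shared with an antisense gene there.

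Other genes of late granules and secretory vesicles, a list of 23 of which 21 were tested, were lower or higher by gene. edgeR called 0 of them with all 5 libraries, and at an unadjusted p under 0.05 there were 3 higher and 4 lower; the calls were 3 and 3 in DESeq2 and 3 and 4 in limma-voom. With deleted 6 left out, edgeR called 3 higher and 8 lower. In 10 of the 21 deleted 6 was at least 4-fold below every other library, and in 2 at least 4-fold above. The median of the list on the log2 scale was -0.65, and -0.17 without deleted 6. Slpi, an inhibitor of neutrophil serine proteases, stood at 1738 and 1829 CPM in wild-type 1 and wild-type 3 against 268, 307 and 129.7 CPM in deleted 2, 4 and 6 (-2.92 ± 0.43, edgeR adjusted p = 0.133; without deleted 6 it fell by 2.62 ± 0.17, adjusted p = 0.000799). Olfm4, olfactomedin of a subset of specific granules, stood at 20.8 and 51.8 CPM in wild-type 1 and wild-type 3 and at 0.473, 2.21 and 0.158 CPM in the deleted libraries. Ifitm6 was at 52.4 and 42.7 CPM against 2.80, 3.53 and 0.950 CPM, and Cfp, properdin, at 443 and 473 CPM against 222, 298 and 302 CPM.

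Among the higher genes of that list, Adam8, a membrane protease, stood at 195 and 279 CPM in wild-type 1 and wild-type 3 and at 447, 573 and 503 CPM in deleted 2, 4 and 6 (without deleted 6 it rose by 1.117 ± 0.22, edgeR adjusted p = 0.0224). Orm1, an acute-phase protein, stood at 0.145 and 0.0360 CPM in wild-type 1 and wild-type 3, where only 6 and 2 reads were counted. In deleted 2, 4 and 6 it stood at 2.23, 2.40 and 9.61 CPM. The integrin chains Itgam and Itgb2, stored in granule membranes and also carried by macrophages, were like Cybb highest in deleted 6, at 1598 against 456 to 712 CPM and at 3463 against 590 to 949.6 CPM. Lyz2, lysozyme, reached 68117 CPM there and stood at 7215 to 15417 CPM elsewhere.

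Primary granule genes were low in deleted 6 as well, in 9 of 10 at least 4-fold below every other library. Mpo, myeloperoxidase, stood at 2706 and 3972 CPM in wild-type 1 and wild-type 3, 5068 and 3798 CPM in deleted 2 and deleted 4, and 4.21 CPM in deleted 6. Elane, neutrophil elastase, was at 4869 and 4977 CPM, then 831 and 848 CPM, then 1.45 CPM, so that deleted 2 and 4 lay below wild-type, as for Camp and Ngp. The exception was Cd63, a granule membrane protein shared with lysosomes, at 1176 CPM in deleted 6 against 293 to 690 CPM. With all 5 libraries edgeR called 0 of the 10 genes, and at an unadjusted p under 0.05 there was 1 higher and 0 lower, and DESeq2 and limma-voom each called 1 higher. Without deleted 6 it called 4 lower (Elane, Prtn3, Fcnb and Ms4a3) and 2 higher (Cd63 and Cst7).

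Factors known to drive or repress granule genes showed both patterns. Cebpe stood at 39.8 and 34.1 CPM in wild-type 1 and wild-type 3, 19.0 and 25.2 CPM in deleted 2 and deleted 4, and 1.63 CPM in deleted 6. Without deleted 6 its log2 fold change was -0.73 ± 0.20 and missed the threshold (edgeR adjusted p = 0.0582). Gfi1, a repressor needed for neutrophil maturation, was at 144 and 183 CPM, then 106 and 75.5 CPM, then 0.430 CPM in deleted 6, and it fell by 0.84 ± 0.21 without deleted 6 (edgeR adjusted p = 0.0458). Cebpd fell by 0.69 ± 0.14 there (edgeR adjusted p = 0.0260), from 115 and 117 CPM to 65.3 and 77.7 CPM, and stood at 20.3 CPM in deleted 6.

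Spi1, which encodes PU.1, an activator of Cybb, ranged only from 279 to 361 CPM over the 5 libraries. Cebpa was highest in deleted 6, at 64.0 against 22.5 to 32.8 CPM, and Cebpb stood at 153 to 265 CPM. Runx1, the gene of the fusion's DNA-binding part, rose by 1.32 ± 0.17 without deleted 6 (edgeR adjusted p = 0.00541), and whether its counts include reads of the fusion was not tested. Cux1, a repressor of several granule genes, stood at 126 and 145 CPM in wild-type 1 and wild-type 3 and at 171, 153 and 197 CPM in the deleted libraries (edgeR adjusted p = 0.436). Of the 8 factors edgeR called 0 with all 5 libraries, with Runx1 alone at an unadjusted p under 0.05, and Runx1 alone was called by DESeq2 and by limma-voom. With deleted 6 left out, edgeR called 1 higher and 2 lower.

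Surface genes of mature neutrophils went with the S100 genes in deleted 6. Csf3r, the G-CSF receptor, stood at 123 and 177 CPM in wild-type 1 and wild-type 3, 159 and 168 CPM in deleted 2 and deleted 4, and 2.78 CPM in deleted 6. In 8 of 10 genes of the list deleted 6 was at least 4-fold below every other library. The C-type lectins Clec4d and Clec4e differed from the rest, with 289 and 1205 CPM in deleted 6 against 51.1 to 200.03 and 151 to 442 CPM. Ly6g, the marker used to sort mature neutrophils, did not exceed 6.30 CPM in any library, and Cxcr2, the chemokine receptor of mature neutrophils, stood at 12.005 and 23.5 CPM in wild-type 1 and wild-type 3, 58.4 and 35.7 CPM in deleted 2 and deleted 4 and 0.430 CPM in deleted 6. With all 5 libraries edgeR called 0 of the list, and at an unadjusted p under 0.05 there were 2 higher and 1 lower; the calls were 1 and 1 in DESeq2 and 2 and 1 in limma-voom. With deleted 6 left out, edgeR called 2 higher and 3 lower.

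**Figure D4:**
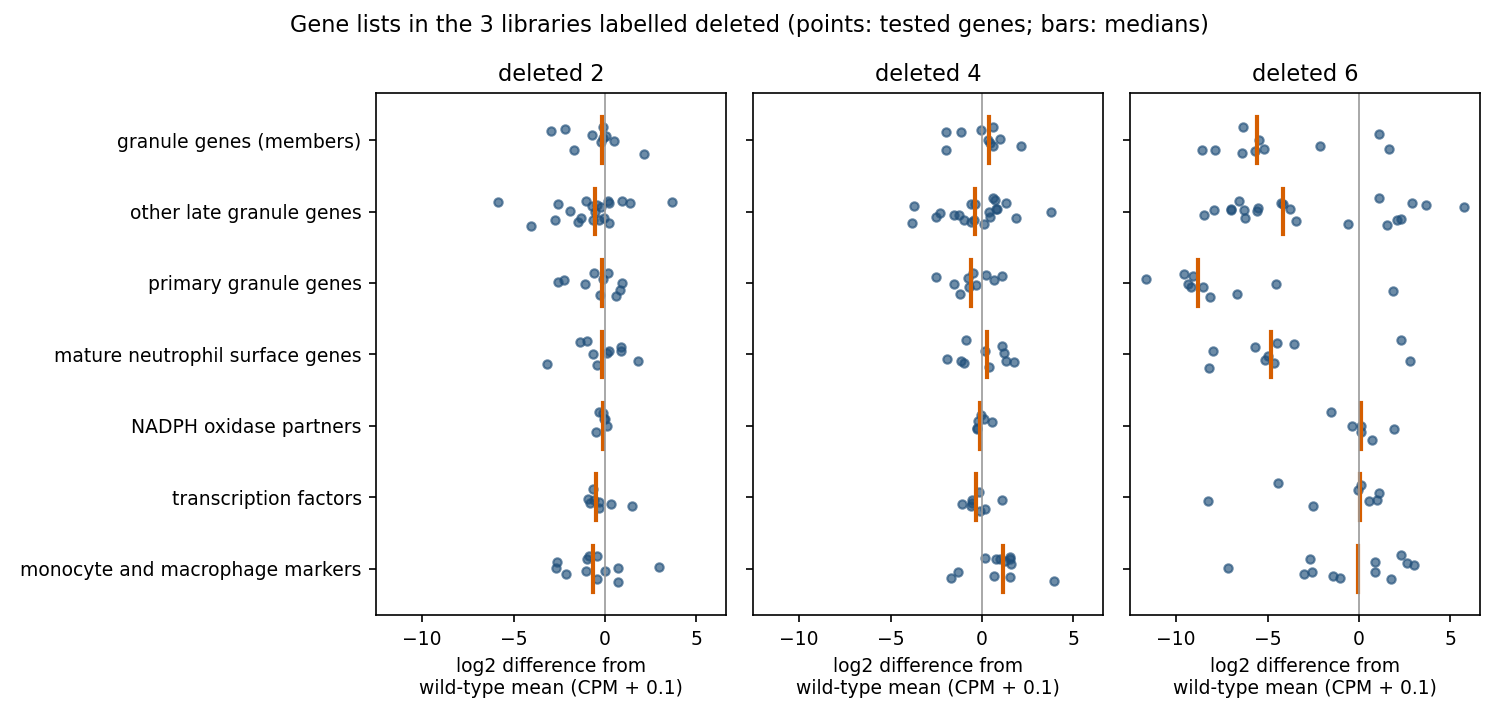
log2 difference of each tested gene from the wild-type mean, after adding 0.1 to CPM, in deleted 2, 4 and 6; points are genes and bars are list medians. In deleted 6 the members' median is -5.59; in deleted 2 and deleted 4 the members' medians are -0.17 and 0.38.

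The 5 other genes whose profile over the 5 libraries was most like the members' median profile were Prom1, Csf3r, Kntc1, Mrgpra2b and Kif4, with root mean square differences of 0.193, 0.264, 0.297, 0.307 and 0.312 on the log2 scale after centring each gene. Prom1, a membrane glycoprotein, stood at 32.8 and 51.8 CPM in wild-type 1 and wild-type 3, 34.5 and 51.7 CPM in deleted 2 and deleted 4, and 0.746 CPM in deleted 6. Kif4 and Kntc1 act in mitosis. The profile is set mostly by the low value in deleted 6, and likeness over 5 libraries is a description.

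Markers of other cell types also differed between the libraries. Monocyte and macrophage markers summed to 5642 and 5919 CPM in wild-type 1 and wild-type 3, 7257 and 13231 CPM in deleted 2 and deleted 4 and 25021 CPM in deleted 6, with 0 of 12 at 0 counts in any library. Gpnmb and Cd68, the highest of them, reached 20809 and 2451 CPM in deleted 6, whereas the monocyte marker Ly6c2 was at 5.45 CPM there. Most of the sum in deleted 6 was thus Gpnmb. The median log2 fold change of the 12 markers in edgeR was 0.33 with all 5 libraries and 0.49 without deleted 6. Mast cell markers summed to 40.5 and 82.2 CPM in wild-type 1 and wild-type 3, 10358 and 4698 CPM in deleted 2 and deleted 4 and 32.3 CPM in deleted 6, with none of 8 at 0; Cpa3 led them at 5961 CPM in deleted 2. Megakaryocyte markers summed to 62.2 to 75.6 CPM in wild-type 1 and wild-type 3 and 226 to 395 CPM in deleted libraries, with 1 of 6, Gp9, at 0 in deleted 6. edgeR called 0 markers of these 3 lists when all 5 libraries were used. At an unadjusted p under 0.05, 3 monocyte and macrophage markers were higher and 1 lower, 6 mast cell markers were higher and 3 megakaryocyte markers were higher. DESeq2 called 2 and 1, 6 and 3 of them, and limma-voom 3 and 1, 3 and 3. In the fit without deleted 6, which called Camp, Ngp, Mmp9 and Chil3, edgeR called 8 of 8 mast cell markers higher, 4 of 6 megakaryocyte markers higher, and 3 of 12 monocyte and macrophage markers higher and 2 lower. The part of these cells in the levels of the granule genes was not tested.

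Eosinophil markers, a list of 6, summed to 13.4 and 52.2 CPM in wild-type 1 and wild-type 3 and 4.70 to 28.0 CPM in deleted libraries, with Epx, Prg2, Prg3 and Il5ra at 0 in deleted 6 and 2 of the 6 at 0 in wild-type 1. Markers of Kit-positive progenitors (Kit, Cd34 and Flt3, none at 0) summed to 53.7 and 82.1 CPM in wild-type 1 and wild-type 3, 877 and 450.2 CPM in deleted 2 and deleted 4 and 4.91 CPM in deleted 6. Erythroid markers summed to at most 12.9 CPM in any library, B cell markers to at most 21.4 CPM (mostly Cd79b, with Pax5 at 0 in 4 of 5 libraries) and T and NK cell markers to at most 0.302 CPM, with Cd3e, Cd3g and Ncr1 at 0 in all 5. Proliferation genes summed to 1402 and 1542 CPM in wild-type 1 and wild-type 3, 1027 and 988 CPM in deleted 2 and deleted 4 and 66.5 CPM in deleted 6, with none of 6 at 0, and there Mki67 was at 7.76 CPM. The B cell sum was 16.2 CPM in wild-type 1 and 0.158 to 7.04 CPM in the deleted libraries. With all 5 libraries edgeR called 0 genes of the lists in this paragraph. Without deleted 6 it called 2 of 3 progenitor, 2 of 5 tested eosinophil and 1 of 3 tested erythroid markers higher. It also called 1 of 3 tested B cell markers and 2 of 6 proliferation genes lower. The part of these cells and of proliferation in the levels of the granule genes was not tested either.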

How the data were processed

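Per the labels' protocols, RNA was extracted with Trizol and single-end libraries were made with a low-input template-switching kit and Nextera XT, which do not mark strand. The deposited per-library files hold raw counts per gene, made by the authors with bcl2fastq 1.8.4 and STAR on mm10, per the submitters' processing notes. For the annotation and the counting options, nothing is given in the sources used here. Values in the deposited normalized signal table equal the counts divided by 1 size factor per library (DESeq2 1.12.4 per the submitters' processing notes): 0 of 21151 to 23197 values per library were off by over 1e-6 of themselves. A deposited log2 table holds transformed values by a method not stated in the sources used here, and it served only as an alternative added after seeing the data. The 5 lines that name no gene (no feature 5.89% to 8.09%, multiply aligned 13.0% to 15.1%, among others) stayed out of library sizes.

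Counts were tested with edgeR 4.0.16 (filterByExpr, TMM, quasi-likelihood F test; R 4.3.3), deleted against wild-type, with Benjamini-Hochberg adjustment over all tested genes and a threshold of 0.05. Alternatives were DESeq2 1.42.0, limma-voom with quality weights (limma 3.58.1), other scalings and filters, lane 4 alone and each library left out. The scripts were tested on simulated data. CPM are TMM-scaled, and CPM per kb use GENCODE M21 exon length. With 2 against 3 libraries an exact permutation test cannot go below a two-sided p of 0.1. Genes named in the text are Plcg1, all members, genes of the lists of at most 10, the 6 lowest p of the longer list with Lyz2, Itgam and Itgb2, the 2 highest markers per list with Kit and Mki67, and the 5 genes most like the members' median profile; others were chosen after their values were seen. The members and lists were chosen with earlier results of these data known. The values of 2 genes of these lists are not reported here.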

Additional observations from a re-analysis of the deposited data

How the results depend on the processing

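Directions depended on deleted 6. Without it the log2 fold changes changed sign to 0.12 for Ltf, 0.26 for Lcn2, 0.24 for S100a8, 0.19 for S100a9 and -0.33 for Cybb; limma-voom gave 0.10, 0.29, 0.26, 0.16 and -0.12 for these genes. In lane 4 alone Lcn2 (0.00636), S100a8 (0.40), S100a9 (0.00491) and Cybb (-0.33) changed sign, as did Ltf without wild-type 3 (0.10). With single libraries left out the log2 fold changes ran from -1.02 to 0.12 for Ltf, -1.10 to 0.26 for Lcn2, -1.19 to 0.24 for S100a8, -1.07 to 0.19 for S100a9 and -0.33 to 1.05 for Cybb. In these fits 0 to 1 members were called higher and 0 to 3 lower, with the highest counts without deleted 6. Without deleted 6 the groups did not overlap in 2 members above and 4 below. Of the 15787 genes tested there, 4525 lay above and 4711 below without overlap. For the other leave-one-out fits that share was not counted, so no member count is given. That share was not counted for lane 4 alone either, so its member counts without overlap, given next, cannot be compared with all genes. A single wild-type library also makes separation by order alone more likely. Lane 4 alone, whose single wild-type library is assumed to vary like deleted 2 and 4, called 1 higher (Chil3) and 1 lower (Mmp9), with 2 members above and 5 below without overlap. Mmp9 was the 1 member called lower without the filter on low counts and by DESeq2, and limma-voom called 1 higher and 1 lower. Over all genes edgeR called 0 to 1245 higher and 0 to 800 lower with single libraries left out, 211 and 131 in lane 4 and 163 and 115 without the filter; DESeq2 called 838 and 396 and limma-voom 1230 and 947. Among the leave-one-out fits, only the one without deleted 6 called any gene. The causes were not tested. RLE factors, library size alone and a stricter filter called 0 members. No paired analysis was possible because the genotypes share no replicate number. Depth limits Camp in deleted 6, where 3 reads were counted.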

Other observations

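The deposited log2 table gave smaller differences between deleted 6 and the wild-type mean than the log2 of the deposited normalized counts. For Camp the difference was -4.18 in that table and -9.87 from the normalized counts, and for S100a8 it was -2.91 and -5.69. For Mmp8 and Cybb it was 0.72 and 1.17 in that table and 1.09 and 1.68 from the normalized counts. The signs were the same for these 4 genes.

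Hp and Cd177, chosen after their values were seen, are further specific granule genes. Hp, haptoglobin, stood at 1467 and 1358 CPM in wild-type 1 and wild-type 3, 237 and 292 CPM in deleted 2 and deleted 4, and 3.82 CPM in deleted 6. Without deleted 6 it fell by 2.40 ± 0.18 on the log2 scale (edgeR adjusted p = 0.00112). Cd177, a surface glycoprotein of specific granules, was at 245 and 456 CPM, then 89.8 and 117 CPM, then 4.18 CPM, and it fell by 1.75 ± 0.30 without deleted 6 (edgeR adjusted p = 0.0151). With all 5 libraries neither was called (edgeR adjusted p = 0.393 for Hp and 0.412 for Cd177). Anxa1, a membrane-binding granule protein also chosen after its values were seen, stood at 370 and 501 CPM in wild-type 1 and wild-type 3 and at 1110, 1544 and 5396 CPM in deleted 2, 4 and 6 (edgeR adjusted p = 0.286, and 0.00801 without deleted 6).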
